A study of Caenorhabditis elegans with 2 samples.

Results

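The genes described here encode subunits of RNA polymerase II and proteins that splice or bind pre-mRNA. They were chosen by name from the Ensembl annotation of the WBcel235 assembly: protein-coding genes whose name begins with rpb-, snr-, rsp-, prp-, uaf-, rnp- or hrp, which gave 60 of 19985 protein-coding genes. Of these, 11 are polymerase genes (rpb-), 7 encode Sm proteins of the snRNP core (snr-), 8 encode SR proteins (rsp-) and 34 encode other RNA-binding or splicing proteins (13 prp-, 2 uaf-, 9 rnp- and 10 hrp). The data are ChIP-seq peak lists for the transcription factor PAX-1 in late Caenorhabditis elegans embryos. Both samples came from strain OP117, which carries the unc-119(ed3) mutation and the transgene wgIs117, from which PAX-1 is made as a fusion to eGFP; the antibody is labelled pax-1. Whole embryos of mixed sex were used, so no cell type was separated, and the 2 biological replicates form a single group with no untagged animals beside them.

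RNA polymerase II transcribes every protein-coding gene, and several of its small subunits are shared with RNA polymerases I and III. The introns of its transcripts are removed by the spliceosome, which is built from small nuclear ribonucleoproteins (snRNPs). A ring of Sm proteins forms the core of most snRNPs, SR proteins bind exons and recruit snRNPs, U2AF binds the end of the intron, and the PRP proteins act in assembly and catalysis. hnRNP proteins bind nascent transcripts and influence which splice sites are used. In C. elegans many genes also receive a leader exon by trans-splicing, and downstream genes of operons are transcribed from the promoter of the first gene.

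The authors deposited 4 peak lists on the ce11 build, which has the coordinates of WBcel235: 30000 peaks for replicate 1, 29397 for replicate 2, 30000 for the pooled replicates and 714 in the optimal list, which passed their test of reproducibility. Ranked by signal, the optimal list was the top 714 of the pooled list. A place in it does not show that a peak was high in both replicates. Of the 714 optimal peaks, 298 (41.7%) overlapped one of the 714 highest peaks in both. The replicate and pooled lists hold background as well as peaks. The authors' −log10 q for each peak, higher for surer peaks, was 1.85 throughout the optimal list. Its median was 0.282 in replicate 1, 0.034 in replicate 2 and 0.0382 in the pooled list. A summit far down these 3 lists may therefore be background. The signal is the authors' own value for each peak on a scale the files do not state, so it ranks peaks within a list only (rank 1 is the highest). No file gives read counts, so the depth is unknown. A gene was counted as having a peak when a summit, the highest point of a peak, lay within 1000 bp of any of its transcript starts. All 60 genes enter each count. A rank given for a gene in a list is that of its highest summit in reach in that list. Ranks of 1 gene in different lists can therefore belong to different sites.

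The sequences that carried the strongest peaks are shown first. They are the 151 bp around the summit of the optimal peaks at 5 of the 8 genes that had one, taken from the RefSeq WBcel235 genome and written 5′ to 3′ on the strand of the named gene. The windows lie at chrIII:12688141-12688291 for rsp-3 (minus strand), chrIII:11825753-11825903 for rsp-8 (plus strand), chrIV:3338800-3338950 for hrpa-1 (minus strand), chrIII:5172630-5172780 for prp-19 (minus strand) and chrII:484561-484711 for prp-21 (plus strand). Lower pooled peaks at 2 places, chosen after their values were seen, are added because 1 lies between a pair of SR protein genes and 1 was in the list of replicate 2 and not in that of replicate 1. They are rsp-1 with rsp-2 at chrII:11453113-11453263, written on the plus strand of rsp-1, and rpb-8 at chrIII:4918053-4918203 (minus strand). Capitals mark matches to the 9 short motifs described with the sequence results.
rsp-3: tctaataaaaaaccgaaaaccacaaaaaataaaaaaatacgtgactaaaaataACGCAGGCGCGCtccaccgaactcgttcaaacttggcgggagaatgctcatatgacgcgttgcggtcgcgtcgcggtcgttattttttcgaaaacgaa
rsp-8: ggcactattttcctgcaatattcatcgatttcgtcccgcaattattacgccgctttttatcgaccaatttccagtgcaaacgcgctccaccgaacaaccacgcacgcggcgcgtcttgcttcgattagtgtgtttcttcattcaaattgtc
hrpa-1: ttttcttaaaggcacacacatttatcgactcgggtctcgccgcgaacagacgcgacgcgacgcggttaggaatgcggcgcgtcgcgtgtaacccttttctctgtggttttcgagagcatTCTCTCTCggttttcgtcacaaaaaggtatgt
prp-19: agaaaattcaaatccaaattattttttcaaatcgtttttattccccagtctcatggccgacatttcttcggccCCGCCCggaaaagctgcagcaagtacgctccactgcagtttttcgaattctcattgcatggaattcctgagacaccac
prp-21: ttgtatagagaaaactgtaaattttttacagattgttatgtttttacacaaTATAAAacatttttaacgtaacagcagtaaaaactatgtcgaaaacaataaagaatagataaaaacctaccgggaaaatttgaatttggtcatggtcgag
rsp-1 and rsp-2: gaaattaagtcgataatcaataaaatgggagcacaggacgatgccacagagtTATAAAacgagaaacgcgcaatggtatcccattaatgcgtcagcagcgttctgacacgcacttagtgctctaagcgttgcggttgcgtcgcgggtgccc
rpb-8: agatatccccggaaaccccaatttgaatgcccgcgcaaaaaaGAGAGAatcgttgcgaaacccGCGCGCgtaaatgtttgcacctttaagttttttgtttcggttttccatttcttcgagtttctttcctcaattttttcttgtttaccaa

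Optimal peaks lay near 8 of the 60 genes (13.3%), against 709 of 19985 protein-coding genes (3.55%) by the same rule. The 8 were hrpa-1, rsp-3, snr-6, rsp-8, prp-19, prp-21, rpb-3 and snr-2, in falling order of signal. They came from every class: 1 of 11 polymerase genes (9.09%), 2 of 7 snRNP core genes (28.6%), 2 of 8 SR protein genes (25%) and 3 of 34 other genes (8.82%). The classes are small and no test was made between them or against all genes. All 8 summits were upstream of the gene's start, as was the highest one for 629 of the 709 protein-coding genes (88.7%). All 8 were also intergenic, which here means outside protein-coding genes only, and no such share is given here for all optimal peaks. Their signals ran from 60.2 to 108.9, with a median rank of 335, against a median rank of 364 for all protein-coding genes with an optimal peak. The 8 genes thus sat in the body of the optimal list and not at its top. When a peak was given only to the gene with the nearest start, 4 of the 60 genes kept one (hrpa-1, snr-6, rsp-8 and prp-21), against 475 of all genes (2.38%).

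**Figure D1:**
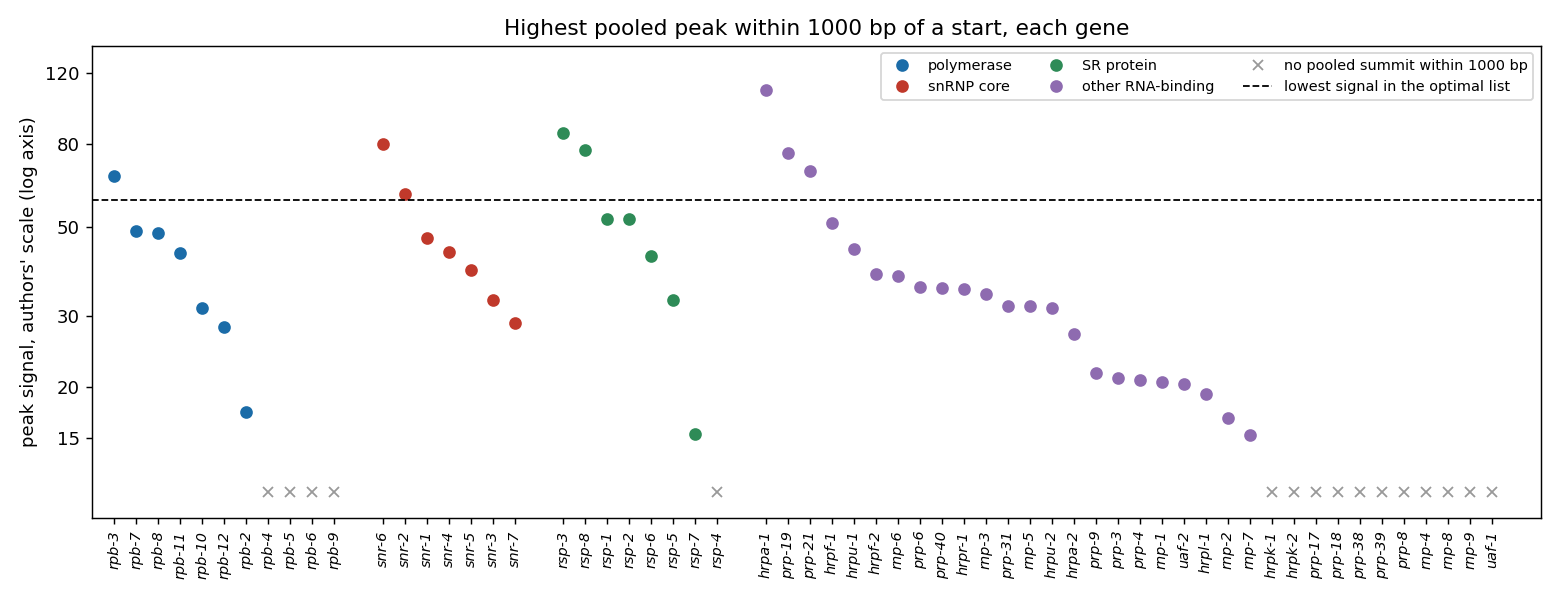
Signal of the highest pooled peak with a summit within 1000 bp of a start, for each of the 60 genes, grouped by class and sorted within it (log axis, authors' scale). Crosses mark the 16 genes with no such peak, and the dashed line is the lowest signal in the optimal list (58.3), which 8 genes exceed.

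Among the polymerase genes, the only optimal peak was at rpb-3, which encodes a subunit of the RPB3 type. This peak (chromosome I, 8728408 to 8728751) had a signal of 66.6 and rank 506 in the pooled list, rank 473 in replicate 1 and rank 724 in replicate 2. Its summit was 184 bp upstream of rpb-3 but only 93 bp from the start of the divergent gene pas-4, which encodes an alpha subunit of the proteasome core, so it cannot be given to 1 of them. A non-coding RNA gene, C36B1.16, also lay under the peak.

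Behind rpb-3 came rpb-7, rpb-8 and rpb-11, with pooled signals of 48.8, 48.2 and 43.0 (ranks 1121, 1153 and 1518). rpb-7 encodes a subunit of the stalk of the polymerase and rpb-11 a partner of RPB3, while rpb-8 encodes a subunit shared by all 3 nuclear polymerases. The summits of all 3 were close to the start, at 1, 120 and 25 bp. The rpb-7 summit was also 4 bp from the start of Y54E10BR.2 on the opposite strand, so it cannot be given to 1 of them. rpb-7 ranked 3036 in replicate 1 and 1215 in replicate 2, and rpb-11 ranked 2267 and 1453. rpb-8 ranked 855 in replicate 2 and had no summit in reach in replicate 1. The shared-subunit gene rpb-10 had the same split, with rank 606 in replicate 2, no summit in reach in replicate 1 and rank 3741 in the pooled list.

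The other polymerase genes had weak peaks or none. rpb-12, another shared subunit, had a pooled rank of 5377, and rpb-2, which encodes the second-largest subunit, a pooled rank of 22718. No pooled summit was in reach of rpb-4, rpb-5, rpb-6 or rpb-9. rpb-6 nonetheless ranked 4778 in replicate 1 and 3910 in replicate 2. rpb-5 had a summit in reach in replicate 1 only (rank 6375), and rpb-4 and rpb-9 in replicate 2 only (ranks 21285 and 22083). Summits at such ranks may be background. In all, 7 of the 11 polymerase genes had a summit in reach in replicate 1 and in the pooled list (63.6% each), near the 52.2% and 52.6% of all protein-coding genes. In replicate 2 it was 10 of 11 (90.9%), against 53.5%.

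All 7 snRNP core genes had a pooled summit in reach, and all 7 had one in each replicate list. Those of snr-6 and snr-2 were optimal. The peak of snr-6 (SmE; chromosome III) had a signal of 80.1 and ranks of 298, 682 and 191 in the pooled, replicate 1 and replicate 2 lists, with its summit 279 bp upstream. That of snr-2 (SmB; chromosome I, 13338851 to 13339194) had a signal of 60.2, close to the lower end of the optimal list, and ranks of 656, 782 and 376. The snr-2 summit was 374 bp upstream of snr-2 and 92 bp from the start of the divergent gene W08E3.4. The snr-6 summit also had the start of a divergent gene, Y49E10.16, in reach, at 601 bp.

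The other 5 Sm genes lay just below or further under the optimal list. snr-1 (SmD3) had a pooled signal of 46.8 and rank 1241, with ranks of 1960 in replicate 1 and 783 in replicate 2. This pooled summit was 323 bp upstream of snr-1 and 288 bp from the start of snx-13. snr-4 (SmD2) had a pooled rank of 1500, with rank 488 in replicate 1 and 4334 in replicate 2. snr-5 (SmF) showed the opposite order, with a pooled rank of 1923, rank 9819 in replicate 1 and rank 1081 in replicate 2. snr-3 (SmD1) ranked 3176 and shared its peak with rsp-5, which starts on the other strand across a gap of 403 bp. snr-7 (SmG) had 4 pooled summits in reach, the highest of rank 4968 inside an exon downstream of its start. Its 6 fellow Sm genes all had their highest pooled summit upstream.

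Among the SR protein genes, rsp-3 and rsp-8 had optimal peaks. rsp-3 encodes the worm counterpart of the mammalian splicing factor SF2/ASF. Its peak (chromosome III, 12688044 to 12688387) had a signal of 85.2 and ranks of 256, 844 and 146 in the pooled, replicate 1 and replicate 2 lists. The summit was 294 bp upstream of rsp-3 and 102 bp from the divergent gene spin-4. The rsp-8 peak (chromosome III, 11825656 to 11825999) had a signal of 77.5 and ranks of 327, 221 and 744. Its summit was 590 bp upstream of rsp-8, which encodes a protein with an RNA recognition motif, and no other protein-coding start was in reach.

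The neighbours rsp-1 and rsp-2 are transcribed away from each other from a gap of 406 bp, and a single pooled peak of signal 52.2 and rank 961 lay between them. It was 174 bp upstream of rsp-1 and 233 bp upstream of rsp-2. In replicate 1 the highest summit of the pair ranked 487, whereas in replicate 2 it ranked 8978. rsp-6, rsp-5 and rsp-7 had pooled ranks of 1589, 3176 and 29167. They ranked 1587, 867 and 1649 in replicate 1 but 12638, 27642 and 9785 in replicate 2. These ranks need not be of the same site. For rsp-7 the highest summit was 283 bp upstream in replicate 1 and 803 bp upstream in replicate 2. rsp-4, which encodes the counterpart of the mammalian SR protein SC35, had no summit in reach in any of the 4 lists.

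The remaining class, 34 genes, held the highest peak of all 60. It was at hrpa-1, which encodes the worm hnRNP A1 protein (chromosome IV, 3338703 to 3339046), with a signal of 108.9 and ranks of 121, 110 and 237 in the pooled, replicate 1 and replicate 2 lists. Its summit was 8 bp upstream of the outermost of 10 annotated starts of hrpa-1, and no other protein-coding start was in reach. The prp-19 peak (chromosome III, 5172533 to 5172876) had a signal of 76.04 and ranks of 343, 300 and 982. prp-19 encodes the namesake of a spliceosome complex with ubiquitin ligase activity. The summit was 660 bp upstream of prp-19 and only 15 bp from the start of the divergent gene K10D2.5. A start of emb-1 was also in reach, at 734 bp. The prp-21 peak (chromosome II, 484464 to 484807) had a signal of 68.5 and ranks of 474, 437 and 589. prp-21 is named after a yeast protein of the U2 snRNP, and its summit lay nearly midway between prp-21 (230 bp) and the divergent gene gldi-1 (258 bp).

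Below the optimal list, hrpf-1 and hrpu-1, both hnRNP genes, had pooled signals of 51.1 and 44.1 (ranks 1018 and 1432). They were followed by hrpf-2 (38.1), rnp-6 (37.8), prp-6 (35.3) and prp-40 (35.3), with ranks of 2040, 2098, 2538 and 2557. The rnp-6 summit was 188 bp upstream of rnp-6 but only 27 bp from the start of rde-10. rnp-6 encodes a poly(U)-binding splicing factor, prp-6 a protein of the tri-snRNP in yeast and mammals, and prp-40 a protein of the U1 snRNP in yeast. Of these 6, prp-6 alone ranked better in replicate 2 (4763) than in replicate 1 (5989). rnp-2, rnp-3 and rnp-7, which encode proteins of the U1 and U2 snRNPs, had pooled ranks of 24360, 2865 and 29724. The rnp-3 summit lay inside an intron of rnp-2, 598 bp upstream of rnp-3, and the rnp-7 summit in an exon of syf-2.

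No summit in any list was within reach of 10 of the 60 genes: 9 in this last class and rsp-4. That is 16.7%, against 28.1% of all protein-coding genes (5618). They included prp-8, which encodes the protein at the catalytic centre of the spliceosome, and uaf-1, which encodes the large subunit of U2AF. The small-subunit gene uaf-2 had a weak pooled peak (rank 15284). The others were hrpk-1, hrpk-2, prp-17, prp-18, prp-38, rnp-4 and rnp-9. rnp-4 encodes a protein of the exon junction complex.

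The classes were then compared over the whole pooled list, since the optimal list is only its upper end. Any pooled summit was in reach of 44 of the 60 genes (73.3%), against 52.6% of all protein-coding genes. In proportion, the difference was larger among stronger peaks. With the 1500 highest pooled peaks, 16 of the 60 genes (26.7%) had a summit in reach, against 6.94% of all genes, and with the 3000 highest 25 (41.7%) did, against 11.9%. With the 6000 highest the values were 55% and 19%. At 3000 peaks the count was 5 of 7 for the snRNP core (71.4%), 5 of 8 for SR proteins (62.5%), 4 of 11 for the polymerase (36.4%) and 11 of 34 for the other genes (32.4%). The SR protein count includes rsp-1 and rsp-2, which share a single peak. Among genes with a pooled summit, the median rank of the highest was 2547.5 for the 60 genes and 9960 for all protein-coding genes. The number of distinct starts per gene, which sets how much sequence is in reach, had a median of 1 in both, with means of 1.83 and 1.49. Their part in the result was not tested.

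**Figure D2:**
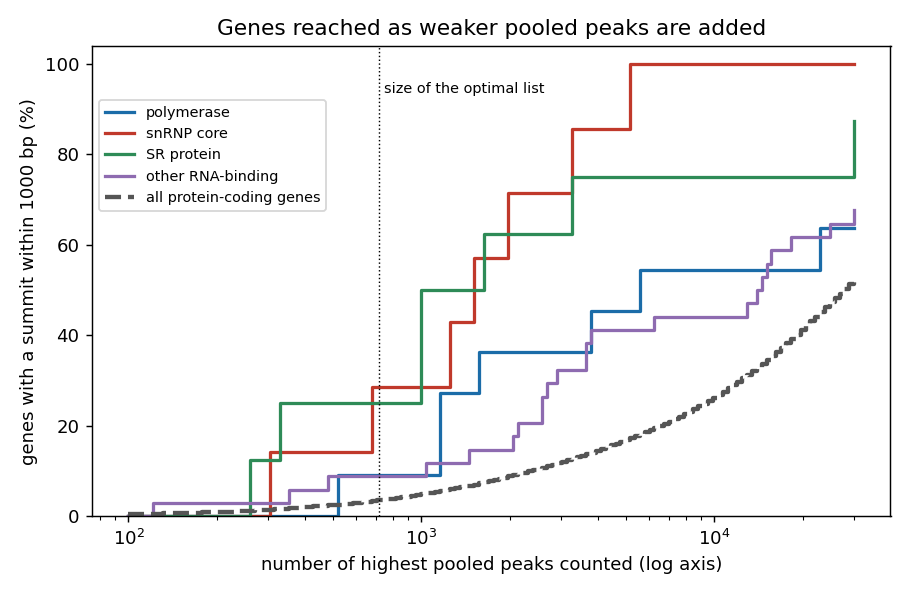
Percentage of genes in each class with a summit within 1000 bp of a start, as the number of pooled peaks counted from the highest downward increases (log axis). The solid lines are the 4 classes and the dashed line all 19985 protein-coding genes; the snRNP core reaches 7 of 7 genes within the 6000 highest peaks, where all genes stand at 19%. A single peak shared by rsp-1 and rsp-2 takes the SR protein line from 25% to 50%.

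The replicates placed peaks near similar numbers of these genes, but the rank of a gene's highest summit in reach often differed. The 2 summits need not be at the same site. Any summit was in reach of 43 of the 60 genes in replicate 1 (71.7%, against 52.2% of all protein-coding genes) and of 45 in replicate 2 (75%, against 53.5%). Both lists had one for 39 genes. At the 8 genes with an optimal peak the signals ran from 36.97 to 75.2 in replicate 1 and from 24.7 to 41.6 in replicate 2. The scale of these values is not stated, so they are not compared between lists. Among the 714 highest peaks of replicate 1, summits lay near 10 of the 60 genes (16.7%), against 3.45% of all genes. Among the 714 highest of replicate 2 they lay near 6 (10%), against 3.35%. Only hrpa-1, prp-21 and snr-6 were in both sets, 3 of 60 genes (5%), against 1.54% of all genes. The optimal peaks of the same 3 genes overlapped one of the 714 highest peaks in both replicates, which held for 298 of all 714 optimal peaks (41.7%).

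High in replicate 1 alone were rsp-1 and rsp-2, which share a peak, and rsp-8, hrpr-1, prp-19, rpb-3 and snr-4. High in replicate 2 alone were rsp-3, rpb-10 and snr-2. Of these 10 genes, rpb-3 (724) and rsp-8 (744) missed the limit of 714 narrowly in replicate 2, and snr-2 (782) and rsp-3 (844) missed it in replicate 1. The gap was wide for rsp-1 and rsp-2, for snr-4, and for rpb-10. Of the 39 genes in both lists, 25 ranked better in replicate 1 and 14 in replicate 2. By class these counts were 6 and 1 for SR proteins, 15 and 4 for the other genes, 2 and 5 for the snRNP core and 2 and 4 for the polymerase. No such counts over all protein-coding genes are given here, so the 39 and its splits describe these genes only. With 1 list per replicate, whether these splits exceed the variation between embryos was not tested.

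**Figure D3:**
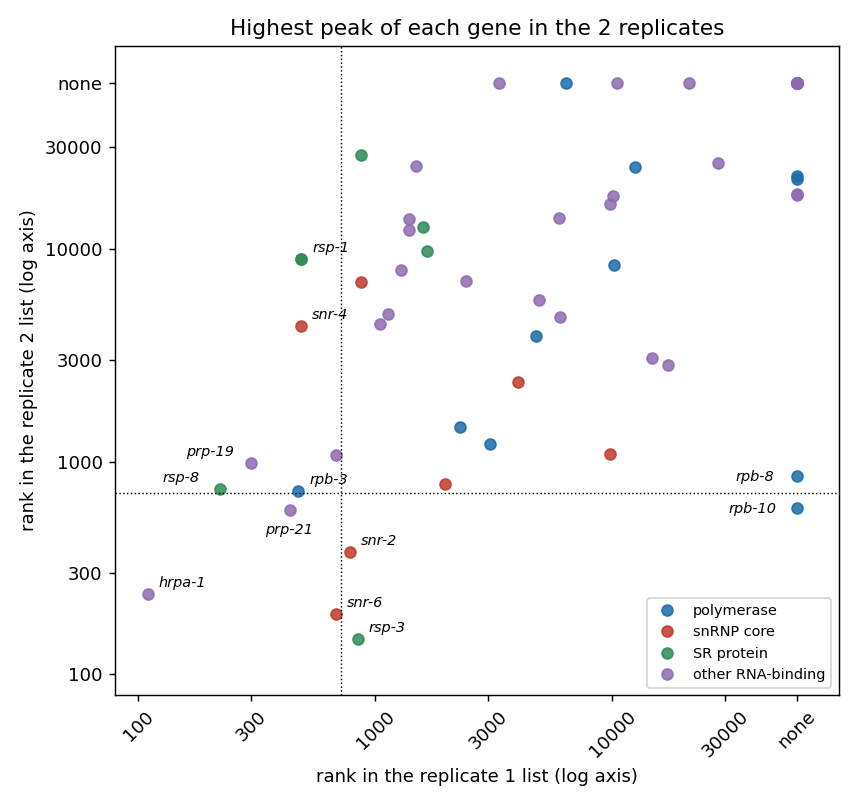
Rank of the highest peak in reach of each gene in the replicate 1 list (horizontal) and the replicate 2 list (vertical), both on log axes; lower ranks are higher peaks, "none" means no summit within 1000 bp, and points can overlie each other. The dotted lines mark rank 714, and 3 genes (hrpa-1, prp-21 and snr-6) rank better than 714 in both lists.

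Summits lay mostly upstream of the starts. The highest pooled summit was upstream for 40 of the 44 genes that had one, against 65.8% of all protein-coding genes with one (6912 of 10503). The 4 exceptions were hrpa-2, hrpu-1, rnp-1 and snr-7. The median distance was 233 bp for the 44 genes and 378 bp for all genes. Neither comparison was matched for signal, and the 44 genes had stronger pooled peaks (median rank 2547.5 against 9960). Among all protein-coding genes with an optimal peak, 88.7% had it upstream and the median distance was 259 bp. The class medians of the distance were 79 bp for the polymerase, 210 bp for the other genes, 234 bp for SR proteins and 353 bp for the snRNP core. Single distances ran from 1 to 734 bp in the polymerase class and from 279 to 511 bp in the snRNP core. In all, 71 distinct pooled summits were in reach, of which 41 were intergenic, 16 intronic and 14 exonic. No such counts are given here for all pooled summits.

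**Figure D4:**
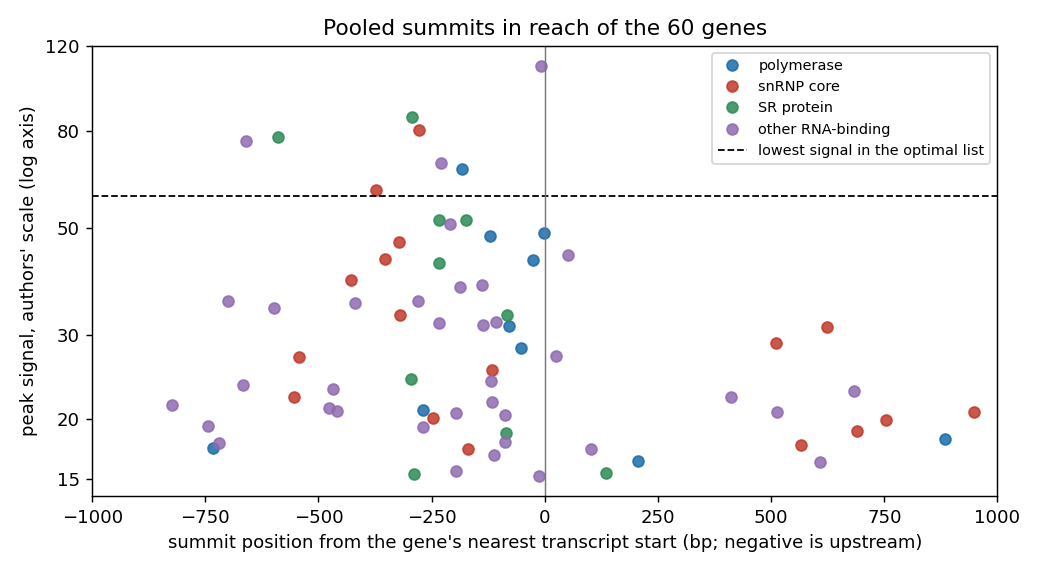
Position of each pooled summit in reach of the 60 genes relative to the gene's nearest transcript start (bp, negative is upstream) against its signal (log axis, authors' scale). Points above the dashed line (58.3) are the 8 optimal peaks, all upstream, and a summit shared by 2 of the genes is drawn for each of them. Of all protein-coding genes with an optimal peak, 88.7% had their highest one upstream.

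Many of these genes start back to back with another gene. The nearest protein-coding gene upstream was on the opposite strand within 2000 bp for 31 of the 60 genes (51.7%), against 25% of all protein-coding genes (4992). Over the whole genome, 7.89% of genes so arranged had an optimal peak, against 2.10% of the genes in all other arrangements (315 of 14993). Of the 31 genes, 6 had an optimal peak (all but hrpa-1 and rsp-8 of the 8) and 27 had a pooled one (87.1%), against 57.8% of all genes so arranged. Of the other 29 genes, 2 had an optimal peak (6.90%), against the 2.10% given above. Of the 8 optimal peaks, 6 (75%) had the start of another protein-coding gene in reach, against 224 of the 490 optimal peaks with any start in reach (45.7%).

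An upstream gene on the same strand ended within 500 bp of 15 of the 60 genes (25%), against 17.7% of all genes. None of the 15 had an optimal peak, against 88 of 3544 such genes in the whole genome (2.48%), a share too low for 15 genes to show a difference. In a search up to 5000 bp from a start, 3 of the 15 had an optimal peak farther upstream, near the start of the gene in front. For prp-38 it was 2039 bp upstream and 161 bp from the start of plrg-1, which encodes another spliceosome protein and ends 106 bp before prp-38. For prp-39 it was 2049 bp upstream and 90 bp from the start of hmgs-1, the gene in front. For hrpu-1 it was 2438 bp upstream and 153 bp from the start of eef-1B.2, which ends 64 bp before it. The signals of these peaks were 76.3, 69.5 and 63.8. plrg-1 ranked 237 in replicate 1 but 5633 in replicate 2, and such ranks are not given here for the other peaks. No count by this wider search is given here for the 3544 genes so arranged, so the 3 have no share beside them. Whether these pairs are operons was not examined here.

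The sequence at the 8 optimal summits was described with 9 motifs, counted on both strands in windows of 151 bp. The first was GTCACGC, the core of the consensus bound by paired domains. The next 4 were hexamers, chosen because earlier work on these files found them frequent at optimal summits, so their shares there are no independent finding. The hexamer AGAGAC was in 1 of the 8 windows (12.5%), against 30.5% of the 705 other optimal windows, 5.76% of lower pooled windows and 7.70% of windows directly upstream of all protein-coding genes. For CGTCTC, which can overlap the first hexamer on the other strand, the shares were 12.5%, against 27.8%, 4.24% and 5.73%. For ACGCAG they were 12.5%, against 24.0%, 3.69% and 4.37%. The last hexamer, GCGCGC, was in 12.5%, against 13.3%, 1.41% and 1.88%.

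The other motifs had not been chosen on these summits. The repeat GAGAGA was in 2 of the 8 windows (25%), that of hrpa-1 among them, against 34.9% of the other optimal windows and 12.8% of upstream windows. The TATA box letters TATAAA were also in 2, at prp-21 and snr-2, against 11.5% and 25.5%. The letters of a splice acceptor, TTTCAG, were in 1 window, at rpb-3, against 9.08% and 31.0%. The GC box letters CCGCCC were in 1 window, at prp-19, against 8.09% and 4.79%. The paired-domain core was in 1 window, at snr-2, against 1.70% and 0.751%. That snr-2 window also held the first pair of hexamers, and the rsp-3 window held ACGCAG directly followed by the last of the 4 hexamers, as printed above. The rsp-8 window held none of the 9. With 8 windows, 1 window is 12.5%, so these shares are too coarse to order.

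The G+C content of the 8 windows ran from 27.2% at prp-21 to 51.7% at hrpa-1, with a median of 43.4%, against a median of 43.7% at the other optimal summits. Across the 63 lower pooled summits in reach of the 60 genes the median was 36.4%, against 31.8% over all lower pooled summits and 33.1% directly upstream of all protein-coding genes.

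Other genes of the same pathways were counted from lists of 173 names, of which 159 matched an annotated gene and 14 did not. Optimal peaks lay near 11 of the 159 (6.92%) and pooled peaks near 138 (86.8%), against 3.55% and 52.6% of all protein-coding genes. Among general transcription factors with the largest polymerase subunit, 1 of 32 had an optimal peak, taf-12 (signal 79.2), which encodes a TFIID subunit. Among elongation and termination factors it was 1 of 33, emb-5, the worm Spt6 gene (73.2), which ranked 694 in replicate 2 and had no summit in reach in replicate 1. None of 10 genes of RNA polymerases I and III had one, although 9 had a pooled peak. Of 12 Sm-like and snRNP assembly genes, lsm-3 had one (64.95), at a summit with 3 other genes in reach and nearer to Y62E10A.23.

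Of 53 other spliceosome genes, 3 had an optimal peak (5.66%, against 3.55% of all protein-coding genes): plrg-1 (76.3), smu-1 (70.7) and sftb-6 (61.9). plrg-1 ranked 237 in replicate 1 but 5633 in replicate 2, and smu-1 ranked 723 and 267. The sftb-6 summit was nearest to luc-7L3 and ranked 306 in replicate 1 but 12402 in replicate 2. Among 19 regulators of alternative splicing, 5 had one (26.3%, against the same 3.55%). Among them were ccar-1 (86.2), which ranked 245 in replicate 1 and 834 in replicate 2, and pqbp-1.1 (75.6), which ranked 394 and 3120. asd-2 (69.95) and asd-1 (67.5), an RNA-binding protein gene of the Fox-1 family, were others. asd-2 ranked 397 in replicate 1 and 2139 in replicate 2, and asd-1 ranked 882 and 357. The regulators had a median of 3 distinct starts per gene, against 1 for all protein-coding genes. The RefSeq annotation of the assembly gives an hrp name to 1 further gene, hrpc-1, which Ensembl calls ztf-4. It had no optimal peak and a pooled rank of 10137.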

How the data were processed

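ChIP-seq peak lists of 2 biological replicates were analysed. The authors deposited narrowPeak lists on ce10 and ce11. Per the file notes the authors deposited, the lists of each replicate and of the pool contain background as well as peaks, a control alignment entered the calls, and the optimal list came from the irreproducible discovery rate procedure. No source used here names the aligner, the peak caller or the threshold. The signal per peak and its −log10 q are the authors' deposited values. Every optimal peak has a −log10 q of 1.85, so ranks were taken from the signal. No read counts are given, so the depth is unknown.

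Only the 4 ce11 lists were used, with the Ensembl 115 annotation and the RefSeq WBcel235 sequence. The number of unmatched columns was 0. Summits within 1000 bp of any transcript start were counted, and all genes were treated by the same rule. No test was made, since there is 1 group and genes that share a peak are not independent. Named were all rpb-, snr- and rsp- genes, other members with an optimal peak, the 6 others with the highest pooled signal, and up to 3 genes per pathway list. Genes named beyond this rule, such as those with no summit, were picked with their values in view. A gene of the pathway lists and the sequence at 1 summit are not reported here. The members and lists were chosen with earlier results of these data known, and 6 names that do not belong to splicing were dropped from the lists before their values were read. The assignment was tested on 400 simulated summits, and all 238 within reach were recovered. Python 3.11.15, numpy 2.4.6, pandas 2.3.3 and matplotlib 3.10.9 were used.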

Additional observations from a re-analysis of the deposited data

How the results depend on the processing

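The count of 8 genes with an optimal peak (13.3%, against 3.55% of all protein-coding genes) was also 8 with starts within 2000 bp, where the share of all genes was 4.98%, with only the outermost start of each gene (3.35%) and with the peak interval in place of the summit (3.83%). With starts within 500 bp it was 6 (10%, against 2.79%), and the SR protein count was 1. When only the nearest start counted, it was 4 (6.67%, against 2.38%), with 0 polymerase, 1 snRNP core and 1 SR protein genes. In the 357 optimal peaks with the highest signal it was 5 (8.33%, against 1.74%), with 0 polymerase and 1 snRNP core genes. The 714 highest peaks of a single replicate gave 6 genes without replicate 1 (10%, against 3.35%) and 10 without replicate 2 (16.7%, against 3.45%). By class the counts without either replicate were 1 for the polymerase, 2 for the snRNP core, 1 to 3 for SR proteins and 2 to 4 for the others. The genes behind these counts changed. Without replicate 1 the polymerase gene was rpb-10 and not rpb-3. Without replicate 2 the snRNP core genes were snr-4 and snr-6, and the SR protein genes rsp-1, rsp-2 and rsp-8. Of the 8 genes, 5 remained without replicate 1 and 6 without replicate 2. Genes with a pooled peak numbered 41 within 500 bp (68.3%, against 37.6% of all genes) and 49 within 2000 bp (81.7%, against 68.3%), where 1000 bp gave 44 (73.3%, against 52.6%). The 3 genes with a high peak in both replicates were also 3 when 50% of the optimal peak had to be covered. The cause of these changes was not tested beyond what each setting removes. No paired analysis was possible because there is 1 group.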
